A study of Mus musculus with 6 samples.

Results

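The enzymes that make serine and pass its carbon through folate to methionine were followed in colorectal tumors with and without epithelial p53. The 10 genes were taken by name from the 54167 rows of the deposited expression table (*Phgdh*, *Psat1*, *Psph*, *Shmt1*, *Shmt2*, *Mthfd1*, *Mthfd2*, *Mthfd1l*, *Aldh1l2* and *Mat2a*), and each name matched a single row. RNA-seq was made from 6 tumors of C57BL/6J mice, 3 from Trp53fl/fl mice, in which both *Trp53* alleles carry loxP sites and were left uncut, and 3 from VP mice, which carry the same alleles with a Pvillin-Cre transgene. Per the study's methods, males aged 8 weeks received the carcinogen azoxymethane (AOM) at 10 mg/kg, followed by repeated 7-day courses of 2.5% dextran sulfate sodium (DSS), which injures the colon lining, and tumors were cut away from the normal tissue at day 98. The villin promoter is active in intestinal epithelium, so immune and stromal cells of a VP tumor keep *Trp53*. The labels do not say that the tumors of a genotype came from separate animals, so p-values measure the spread between these samples only.

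Serine is made from the glycolytic intermediate 3-phosphoglycerate by PHGDH, PSAT1 and PSPH in turn. Serine hydroxymethyltransferases then split it into glycine and a methylene group on tetrahydrofolate, in the cytosol (SHMT1) and in mitochondria (SHMT2), and the MTHFD enzymes interconvert the folate-bound units that purine and thymidylate synthesis use. The methionine cycle receives part of this carbon, and MAT2A makes its methyl donor, S-adenosylmethionine. The pathway is known for its high activity in dividing tumor cells and for its control by the amino acid stress factor ATF4. In cultured cancer cells p53 has been described both as a repressor of *PHGDH* and as a help to cells deprived of serine. The study's discussion cites earlier work for a repression of *MTHFD2* transcription by p53, which limits purine synthesis.

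Values were deposited as TPM, transcript abundances scaled for length and to the same total in each tumor, so that levels of different genes can be set side by side, and which keep no read number, so the sequencing depth is unknown. Log2 fold changes are VP minus Trp53fl/fl on the log2(TPM + 1) scale, which understates differences at low levels. The limma test covered the 15117 genes that reached 1 TPM in 3 or more tumors, p-values were adjusted by the Benjamini-Hochberg method, and all 10 enzyme genes were included. *Trp53* itself was at 124.94, 99.30 and 147.45 TPM in the Trp53fl/fl tumors and fell to 38.45, 32.79 and 27.83 TPM in the VP tumors (limma adjusted p = 0.0207). In bulk tissue, fewer cells of a type and less RNA per cell cannot be told apart. Of marker genes for the cells that a tumor can hold, 12 of 12 epithelial markers were expressed and none was at 0. Their summed level was 10292 to 10688 TPM in Trp53fl/fl and 11639 to 12622 TPM in VP tumors. The markers did not move alike, and their log2 fold changes ran from -0.03 for *Krt20* to 0.47 for *Lgals4*. The median was 0.11, with 10 positive and 2 negative, so the sum does not describe each marker. The 12 neutrophil markers summed to 413 to 764 TPM in Trp53fl/fl and 1327 to 2157 TPM in VP tumors. *S100a9* (253 and 817 TPM on average) and *S100a8* (132 and 505 TPM) had the highest levels in that sum. All 12 log2 fold changes were positive, from 0.07 for *Csf3r* to 4.37 for *Ngp*, with a median of 1.85. The genotypes did not overlap for 8 of the 12, beside 19.3% of all genes tested. *Ngp* was the one gene of all marker lists with a limma adjusted p-value under 0.05. The part of these cell contents in the values below was not tested.

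The sequence just before the transcription start is shown for 3 of the genes, *Phgdh* and *Shmt2*, which were lowest of the Trp53fl/fl tumors in replicate 2, and *Mat2a*, which was highest there. Each is the last 120 bases before the start that RefSeq lists (GRCm38.p6), read 5′ to 3′ on the gene's strand, with CCAAT or its reverse complement ATTGG in capitals. The submitters' processing notes name the build mm9, and the deposited table holds no coordinates, so these positions belong to the RefSeq table alone.
*Phgdh*, chr3:98339970-98340089, minus strand: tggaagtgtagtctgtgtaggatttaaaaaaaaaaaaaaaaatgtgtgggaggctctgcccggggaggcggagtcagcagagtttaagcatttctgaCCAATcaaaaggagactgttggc
*Shmt2*, chr10:127522445-127522564, minus strand: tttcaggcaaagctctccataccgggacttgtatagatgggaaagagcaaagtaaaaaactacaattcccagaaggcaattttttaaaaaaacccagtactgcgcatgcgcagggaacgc
*Mat2a*, chr6:72439557-72439676, minus strand: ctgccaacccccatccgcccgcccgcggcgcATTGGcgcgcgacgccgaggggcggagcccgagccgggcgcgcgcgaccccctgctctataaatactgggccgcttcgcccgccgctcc

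The *Mat2a* stretch had a GC content of 77.5%, against 44.2% for *Phgdh* and 43.3% for *Shmt2*. CCAAT, the box bound by the factor NF-Y, was in capitals once in *Phgdh* and once in *Mat2a* and was not found in the 120 bases of *Shmt2*. In the full RefSeq windows of 300 bases, which run from 250 before to 50 after a start, it was present on either strand for 7 of the 9 enzyme genes in the table, in 7 of their 10 windows, against 37.4% of all 32851 windows. TGATGNAA, the core of the element that ATF4 binds together with C/EBP factors, was found in none of the 10 windows and in 3.97% of all windows. The motifs searched can share at most 1 base at their ends. *Aldh1l2* has no entry in the table. A match of letters is a description of the sequence and not evidence of binding.

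None of the 10 genes differed between the genotypes at a limma adjusted p-value under 0.05, against 0.165% of all genes tested (25 of 15117). None had an unadjusted p-value under 0.05, which 12.5% of all genes had, and none was free of overlap between the genotypes, against 19.3% of all genes. The smallest limma adjusted p-value among them was 0.426, for *Shmt1*. The log2 fold change was positive for 8 and negative for 2, with a median of 0.08, beside -0.07 for all genes tested, of which 39.2% were positive. Centring the tumors on the epithelial markers turned 4 of the positive values negative and put the median of the 10 at -0.09, beside -0.24 for all genes. The 10 genes together summed to 376 ± 48.8 TPM in the Trp53fl/fl group and 410.0 ± 31.9 TPM in the VP group (SD over 3 tumors each). The difference was smaller than the SD of the Trp53fl/fl group and slightly larger than that of the VP group.

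**Figure D1:**
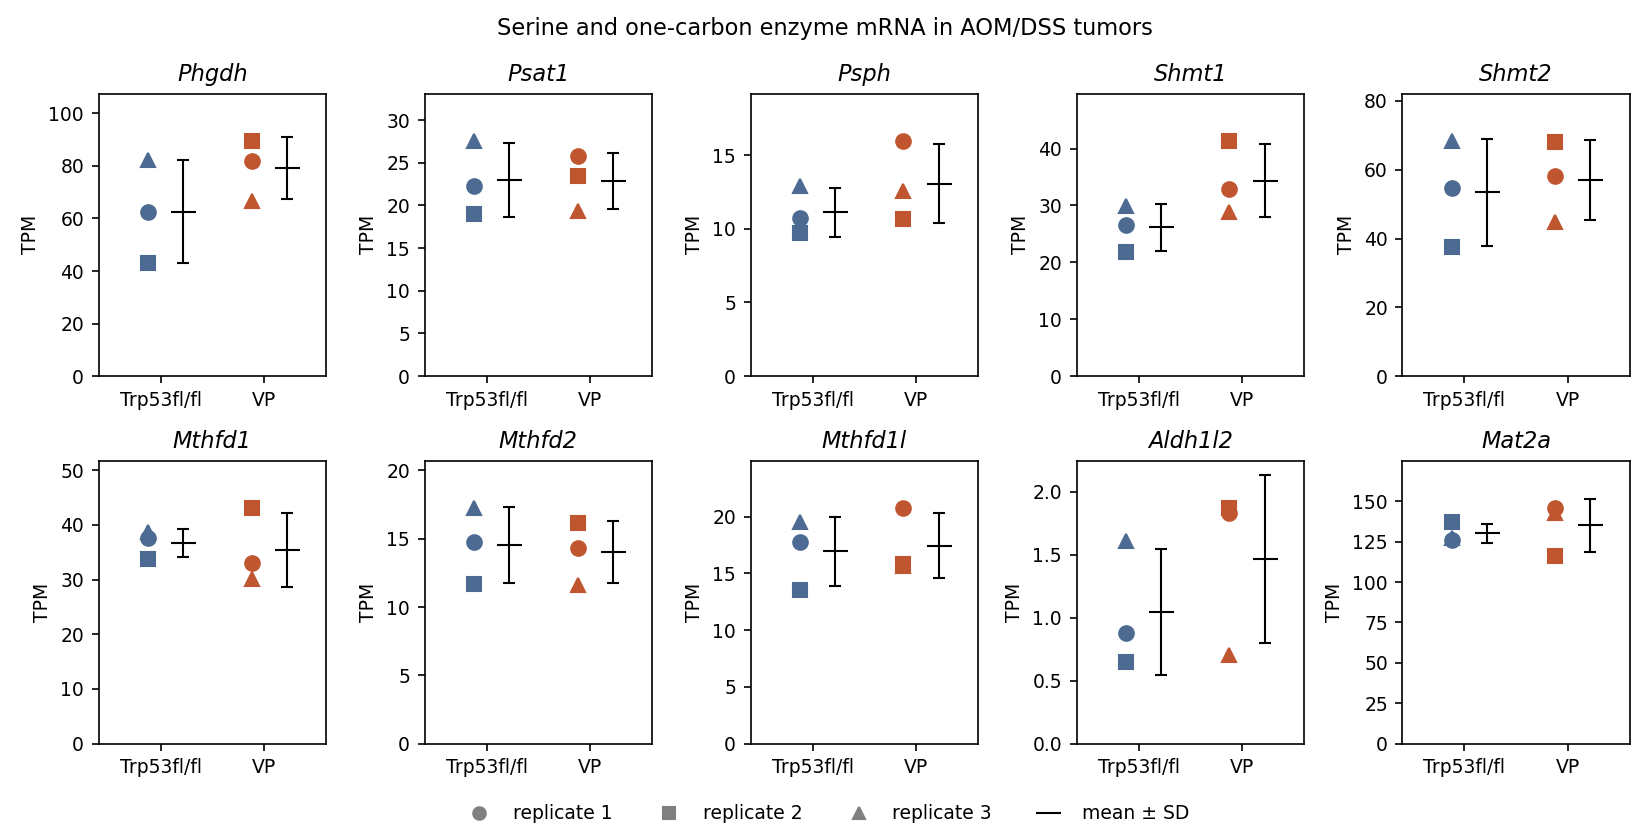
TPM of each of the 10 enzyme genes (vertical axes, each from 0) in the 3 Trp53fl/fl and 3 VP tumors, with the replicate number as the symbol and the mean ± SD beside the points. The points of the genotypes overlap in every panel, and Trp53fl/fl replicate 2 (square) is the lowest of its genotype in 9 of 10 panels.

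Serine synthesis begins with *Phgdh* (ENSMUSG00000053398), the dehydrogenase that commits 3-phosphoglycerate to the pathway. It was at 62.36, 43.07 and 82.25 TPM in Trp53fl/fl replicates 1 to 3 and at 81.70, 89.61 and 66.54 TPM in VP replicates 1 to 3. Trp53fl/fl replicate 2 stood below the other tumors, and Trp53fl/fl replicate 3 lay inside the range of the VP tumors. The log2 fold change was 0.37 (standard error 0.24, limma adjusted p = 0.529), with a 95% interval from -0.18 to 0.93, which corresponds to a VP level between 0.880 and 1.91 times that of Trp53fl/fl tumors. It ranged from 0.13 without Trp53fl/fl replicate 2 to 0.59 without Trp53fl/fl replicate 3.

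*Psat1* (ENSMUSG00000024640), the aminotransferase of the next step, was at 22.30, 19.00 and 27.59 TPM in Trp53fl/fl tumors and at 25.82, 23.49 and 19.32 TPM in VP tumors. The highest and the lowest of the 6 values both came from Trp53fl/fl tumors. The means were 22.96 and 22.88 TPM, and the 95% interval of the log2 fold change ran from -0.41 to 0.41 (limma adjusted p = 0.999).

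*Psph* (ENSMUSG00000029446), the phosphatase that releases serine, was at 10.72, 9.69 and 12.92 TPM in Trp53fl/fl tumors and at 15.98, 10.64 and 12.57 TPM in VP tumors. VP replicate 1 was the highest of the 6, and VP replicate 2 lay below 2 of the 3 Trp53fl/fl tumors. The log2 fold change was 0.21 (standard error 0.18, 95% interval -0.22 to 0.64, limma adjusted p = 0.645). Exons of *Psph* overlap those of *Cct6a* on the opposite strand in GENCODE M21, a gene at 131.54 to 149.52 TPM in these tumors, and whether the quantification used strand is not given in the sources used here, so shared reads cannot be told apart.

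The serine hydroxymethyltransferases take the carbon from serine to folate. *Shmt1* (ENSMUSG00000020534), the cytosolic form, was at 26.64, 21.85 and 29.96 TPM in Trp53fl/fl tumors and at 32.82, 41.40 and 28.81 TPM in VP tumors. Of the VP tumors, replicate 3 alone lay below a Trp53fl/fl tumor, replicate 3. The means were 26.1 ± 4.08 and 34.3 ± 6.43 TPM (SD, n = 3 each), and the log2 fold change of 0.38 (standard error 0.18, 95% interval -0.04 to 0.79) was not significant after correction (limma adjusted p = 0.426). When each tumor was left out in turn, it stayed between 0.24 and 0.49. Epithelial centring left it at 0.21.

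*Shmt2* (ENSMUSG00000025403), the mitochondrial form, was at 54.61, 37.45 and 68.46 TPM in Trp53fl/fl tumors and at 58.22, 68.00 and 44.90 TPM in VP tumors. Here too the Trp53fl/fl tumors held both ends of the range, 1.83-fold apart. The log2 fold change was 0.11 (standard error 0.24, 95% interval -0.46 to 0.69, limma adjusted p = 0.860), and it turned to -0.12 without Trp53fl/fl replicate 2 and to -0.023 without VP replicate 2.

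In the cytosol the trifunctional enzyme MTHFD1 carries all the following folate steps up to formyl-tetrahydrofolate, a carbon donor of purine synthesis. *Mthfd1* (ENSMUSG00000021048) was at 37.53, 33.85 and 38.65 TPM in Trp53fl/fl tumors and at 33.02, 43.08 and 30.13 TPM in VP tumors. The VP tumors spread to both sides of the Trp53fl/fl tumors. Its log2 fold change was -0.06 (standard error 0.15, 95% interval -0.42 to 0.30, limma adjusted p = 0.877).

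In mitochondria the same steps are divided. MTHFD2 and its relative MTHFD2L are dehydrogenases and cyclohydrolases, MTHFD1L releases formate, and ALDH1L2 oxidises the formyl group to carbon dioxide. *Mthfd2l*, which is not among the 10 genes, averaged 9.92 TPM and 8.13 TPM in Trp53fl/fl and VP tumors. *Mthfd2* (ENSMUSG00000005667) was at 14.77, 11.65 and 17.24 TPM in Trp53fl/fl tumors and at 14.32, 16.15 and 11.59 TPM in VP tumors, so that both genotypes covered nearly the same range. Its log2 fold change was -0.05 (standard error 0.19, 95% interval -0.48 to 0.39, limma adjusted p = 0.932).

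*Mthfd1l* (ENSMUSG00000040675) was at 17.75, 13.57 and 19.50 TPM in Trp53fl/fl tumors and at 20.76, 15.87 and 15.69 TPM in VP tumors. VP replicate 1 was the highest of the 6 and Trp53fl/fl replicate 2 the lowest. Its log2 fold change was 0.04 (standard error 0.18, 95% interval -0.38 to 0.46, limma adjusted p = 0.933).

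*Aldh1l2* (ENSMUSG00000020256) was weakly expressed, at 0.88, 0.65 and 1.61 TPM in Trp53fl/fl tumors and at 1.83, 1.87 and 0.70 TPM in VP tumors. It passed 1 TPM in 1 of the 3 Trp53fl/fl and 2 of the 3 VP tumors, which let it into the test. The standard error of its log2 fold change, 0.30, exceeded the value of 0.26 itself (95% interval -0.44 to 0.95, limma adjusted p = 0.729). *Aldh1l1*, which encodes the cytosolic enzyme of the same reaction, was at 125.8 TPM and 130.1 TPM on average in Trp53fl/fl and VP tumors. In GENCODE M21, *Aldh1l2* shares exon bases on the opposite strand with *D10Wsu102e*, at 8.38 to 10.4 TPM. Such overlaps also exist for *Shmt1* with *Smcr8* (11.1 to 12.3 TPM), *Shmt2* with *Ndufa4l2* (3.60 to 9.04 TPM) and *Mat2a* with *Particl* (1.26 to 2.93 TPM).

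*Mat2a* (ENSMUSG00000053907) was at 126.05, 136.97 and 127.09 TPM in Trp53fl/fl tumors and at 145.74, 116.36 and 142.98 TPM in VP tumors. The Trp53fl/fl tumors lay within the range of the VP tumors. Among the 10 genes it had the smallest standard error, 0.12, with a log2 fold change of 0.05 (95% interval -0.23 to 0.33, limma adjusted p = 0.882), which leaves a VP level between 0.851 and 1.26 times that of Trp53fl/fl tumors. *Mat1a*, which encodes the adult liver form of the enzyme, averaged 0.037 TPM and 0.067 TPM.

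**Figure D2:**
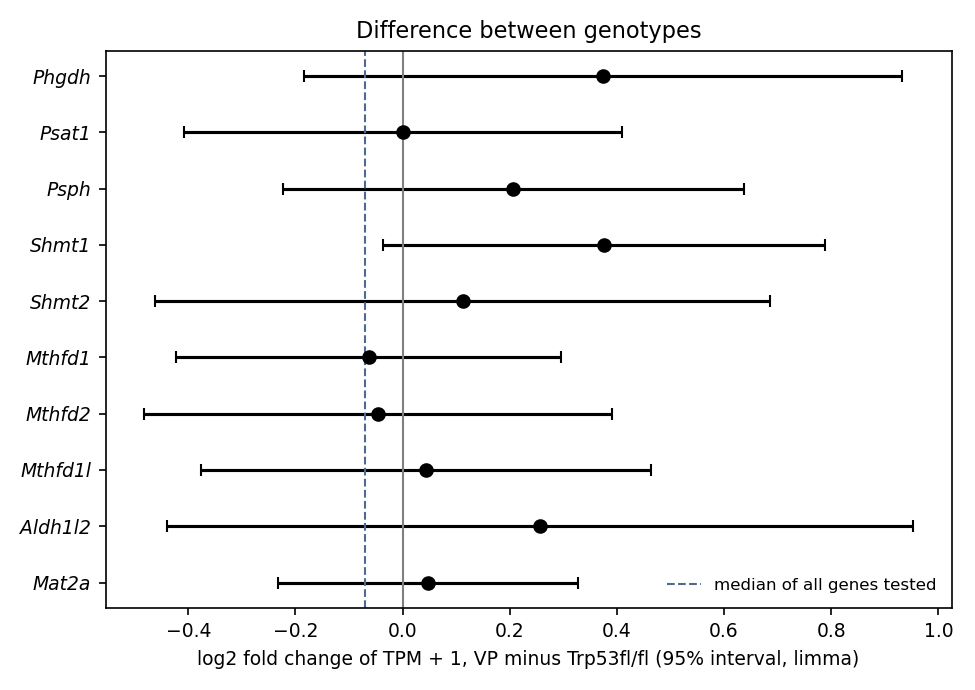
Log2 fold change of each enzyme gene on the log2(TPM + 1) scale, VP minus Trp53fl/fl (horizontal axis), as points with the 95% interval from limma as bars, and the median of all 15117 genes tested as a dashed line. Every interval includes 0, and that of *Mat2a*, from -0.23 to 0.33, is the narrowest.

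By mean level over the 6 tumors the genes ran from *Mat2a* at 132.5 TPM through *Phgdh* (70.9), *Shmt2* (55.3), *Mthfd1* (36.0), *Shmt1* (30.2), *Psat1* (22.9), *Mthfd1l* (17.2), *Mthfd2* (14.3) and *Psph* (12.1) to *Aldh1l2* at 1.26 TPM. The ranges of neighbours in this order overlapped in 7 of 9 pairs, all but *Mat2a* with *Phgdh* and *Psph* with *Aldh1l2*. Within single tumors the order was steadier, since 7 of the 9 pairs stood the same way in all 6 tumors. The exceptions were *Mthfd1l* over *Mthfd2*, which held in 5 tumors, and *Mthfd2* over *Psph*, which held in 4. *Mat2a* made up 27.3% to 41.8% of the summed TPM of the 10 genes and *Phgdh* 13.1% to 21.0%.

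Most of the 10 genes ranked the Trp53fl/fl tumors in the same order. In these tumors, 9 of the 10 genes were lowest in replicate 2 and highest in replicate 3, an order that 25.7% of all genes tested had. *Mat2a* was the exception and was highest in replicate 2. In VP tumors, 8 of the 10 were lowest in replicate 3, against 35.8% of all genes, and *Psph* and *Mat2a* were lowest in replicate 2. The highest VP tumor was not shared, since 4 genes were highest in replicate 1 and 6 in replicate 2. The pattern was noticed after the values had been seen and was not tested. The ratio of the highest to the lowest of the 6 values was 2.88 for *Aldh1l2*, 2.08 for *Phgdh*, 1.89 for *Shmt1* and 1.83 for *Shmt2*, down to 1.25 for *Mat2a*, beside a median of 1.63 for all genes tested.

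**Figure D3:**
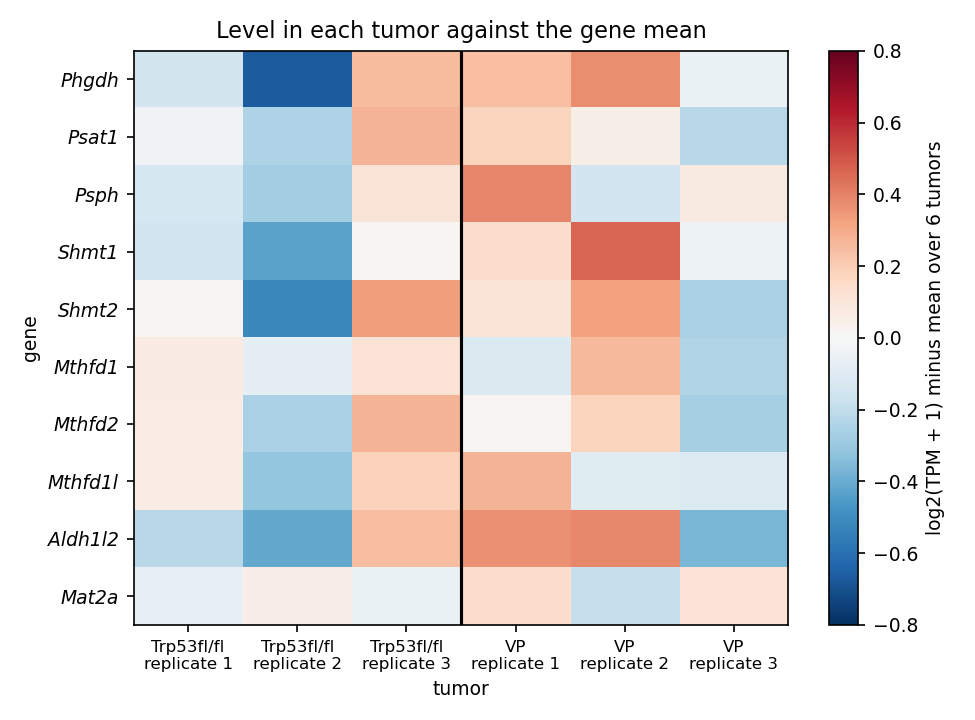
Difference of log2(TPM + 1) from the gene's mean over the 6 tumors (colour, blue below and red above), with genes as rows and tumors as columns. Trp53fl/fl replicate 2 is below the mean for 9 of the 10 genes, and *Mat2a*, in the last row, is above it there.

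Of the 10 genes, *Phgdh* had the largest SD of log2(TPM + 1) over the tumors, 0.38, close to the 0.37 of *Aldh1l2*. Among the genes tested, those whose log2 profile lay nearest to that of *Phgdh* were *Trp53i11*, *Tmem63a* and *Pak6*. Their root mean square difference from it over the 6 tumors, after each profile was centred on its own mean, was 0.084, 0.085 and 0.088. These 3 are named for the closeness of their values alone.

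Ratios within a tumor do not depend on the scaling of TPM. The *Shmt2* to *Shmt1* ratio, mitochondrial over cytosolic, was 2.05, 1.71 and 2.29 in Trp53fl/fl tumors and 1.77, 1.64 and 1.56 in VP tumors. All VP tumors but replicate 1 lay below every Trp53fl/fl tumor, and the mean was 0.36 lower in VP tumors (2.02 ± 0.29 against 1.66 ± 0.11, SD, n = 3 each). Without Trp53fl/fl replicate 2 the difference was -0.51 and without Trp53fl/fl replicate 3 it was -0.22. The *Mthfd2* to *Mthfd1* ratio was 0.39, 0.34 and 0.45 in Trp53fl/fl tumors and 0.43, 0.37 and 0.38 in VP tumors, with means of 0.395 and 0.398. Summed over the mitochondrial enzymes (*Shmt2*, *Mthfd2*, *Mthfd1l* and *Aldh1l2*) and divided by the cytosolic ones (*Shmt1* and *Mthfd1*), the ratio was 1.37, 1.14 and 1.56 against 1.44, 1.21 and 1.24. *Phgdh* to *Psph*, the first to the last step of serine synthesis, stood at 5.82, 4.44 and 6.37 against 5.11, 8.42 and 5.29. When single tumors were left out, the VP minus Trp53fl/fl difference changed sign for the last 3 ratios, from -0.022 to 0.029 for *Mthfd2* to *Mthfd1*, from -0.17 to 0.042 for mitochondrial to cytosolic enzymes and from -0.34 to 1.32 for *Phgdh* to *Psph*. The genotypes overlapped in each of the 4 ratios.

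**Figure D4:**
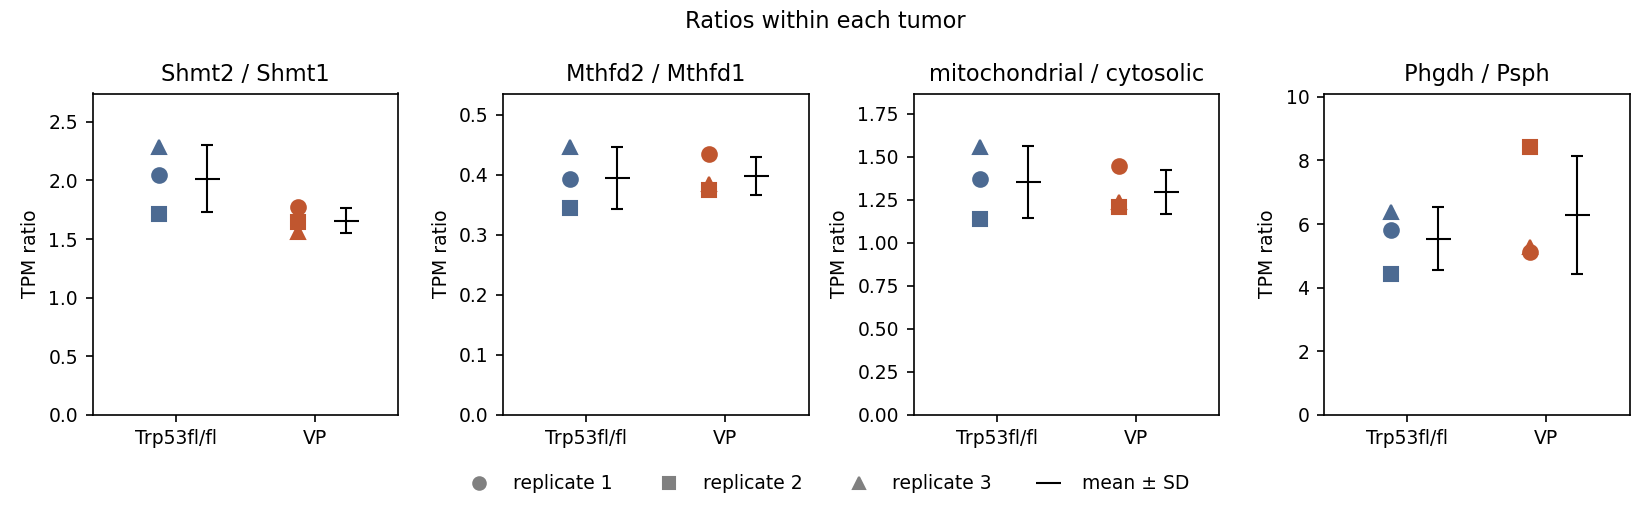
Ratio of TPM values within each tumor (vertical axes, each from 0) for *Shmt2* to *Shmt1*, *Mthfd2* to *Mthfd1*, mitochondrial to cytosolic folate enzymes and *Phgdh* to *Psph*, with the replicate number as the symbol and the mean ± SD beside the points. The genotypes overlap in all panels, by 1 VP tumor for *Shmt2* to *Shmt1*.

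Around the 10 enzymes, 6 further groups with 77 genes were read in the same fit, of which 68 were expressed highly enough to be tested. No gene of these lists passed a limma adjusted p-value under 0.05 in either direction, and 7 were lower and none higher in VP tumors at an unadjusted p-value under 0.05. Of all 15117 genes tested, 1210 (8.0%) were lower and 682 (4.51%) higher at that threshold, so the share of lower genes in the lists lay near that of all genes. For 16 of the 68 the genotypes did not overlap, beside 19.3% of all genes.

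Of 13 tested folate enzymes and carriers, among them *Tyms* of thymidylate synthesis, the median log2 fold change was -0.14 with 6 positive and 7 negative. The 6 tested genes of glycine cleavage and choline breakdown had a median of 0.04, and *Gldc*, the decarboxylase of the glycine cleavage system, averaged 0.39 TPM and 0.40 TPM in the genotypes. The 12 tested genes of the methionine cycle and transsulfuration had a median of -0.04, beside -0.07 for all genes tested. That list is wider than its name, since it holds *Amd1* of polyamine synthesis, the AHCY-like *Ahcyl1* and *Ahcyl2*, and *Mthfsd*. On average in Trp53fl/fl and VP tumors, *Ahcyl1* was at 89.98 and 79.95 TPM and *Amd1* at 72.74 and 57.05 TPM. *Mthfsd* was at 30.59 and 23.24 TPM and *Ahcyl2* at 33.07 and 39.84 TPM. The summed level of the whole list, not of the named pathways alone, was 519 to 536 TPM in Trp53fl/fl tumors and 490 to 506 TPM in VP tumors, without overlap. Those sums were not rescaled. The factors by which median-of-ratios rescaling divides were 1.029 to 1.034 in Trp53fl/fl tumors and 0.967 to 0.983 in VP tumors. A gap of this size therefore cannot be told apart from the scaling of TPM. The 10 tested genes of serine and glycine transport and breakdown had a median of -0.09, with 2 positive and 8 negative.

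*Slc38a2*, an amino acid transporter, was the gene of that list with the smallest unadjusted p-value, at 80.62, 78.73 and 74.15 TPM against 58.07, 64.94 and 66.03 TPM. The VP tumors lay below every Trp53fl/fl tumor, and the difference was -0.30 on the log2 scale (limma adjusted p = 0.338).

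The 15 genes of ATF4 and its targets had a median log2 fold change of 0.13, with 11 positive and 4 negative. *Atf4* itself averaged 149.7 TPM and 150.6 TPM. Its targets *Pycr1*, a proline synthesis enzyme, and *Sesn2*, a sensor of amino acid shortage that p53 also induces, had the smallest unadjusted p-values of all 6 lists. *Pycr1* was at 83.19, 82.54 and 86.23 TPM against 65.76, 45.44 and 65.74 TPM, a difference of -0.52 on the log2 scale without overlap (limma adjusted p = 0.317). *Sesn2* was at 10.72, 10.64 and 10.90 TPM against 7.16, 8.70 and 7.41 TPM, -0.43 on the log2 scale and again without overlap (limma adjusted p = 0.317). A further gene of the list, *Slc7a11*, was also lower without overlap, by -0.50 on the log2 scale (limma adjusted p = 0.341). At an unadjusted limma p-value under 0.05, 3 genes of the list were lower and 0 higher in VP tumors. *Pycr1*, *Sesn2* and *Slc7a11* thus lay on the other side of 0 from the median of their list, and none passed the adjustment. Epithelial centring moved the median of all genes from -0.07 to -0.24, a shift larger than the 0.13 of this list.

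Of 12 genes of Myc and cell division, 3 were on the positive and 9 on the negative side of 0, and the median was -0.11. *Ccna2*, which encodes cyclin A2, was at 43.28, 44.70 and 47.68 TPM against 35.75, 38.61 and 31.93 TPM, a difference of -0.35 on the log2 scale (limma adjusted p = 0.330). The summed level of this list was 773 to 951 TPM in Trp53fl/fl and 685 to 869 TPM in VP tumors.

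**Figure D5:**
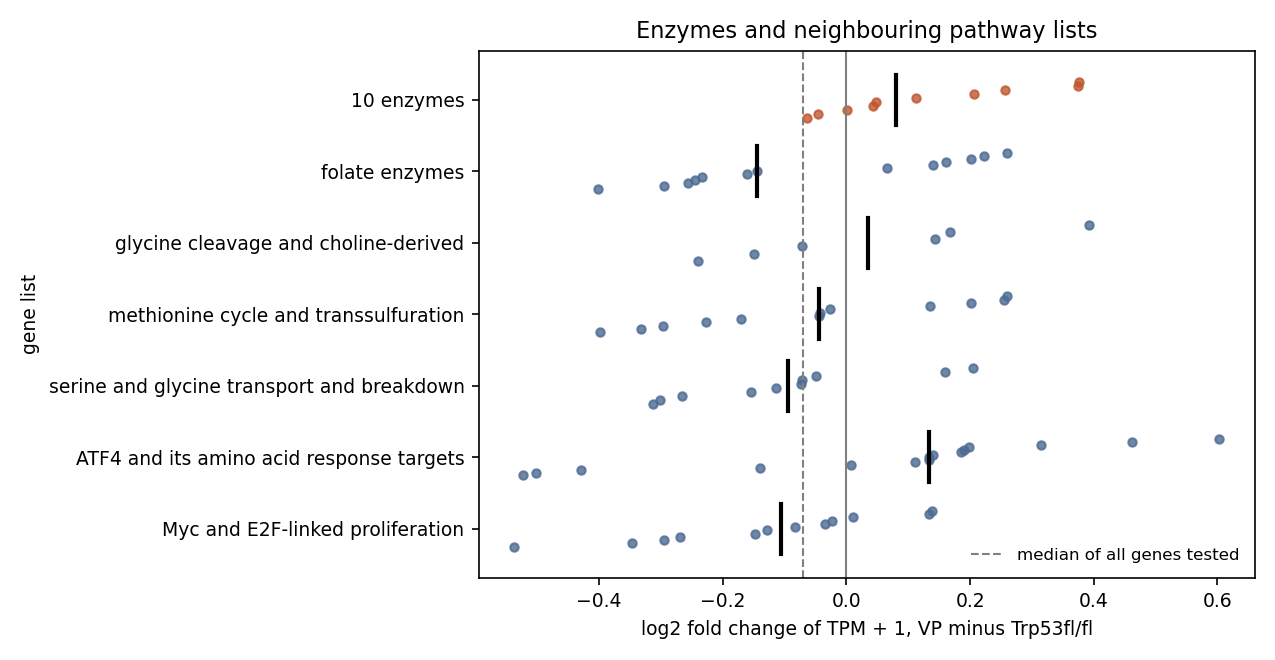
Log2 fold change on the log2(TPM + 1) scale, VP minus Trp53fl/fl (horizontal axis), of the 10 enzyme genes (orange) and of the tested genes of 6 neighbouring lists (blue), 1 point per gene, with the median of each list as a black bar and the median of all genes tested, -0.07, as a dashed line. The list medians lie between -0.14 and 0.13, and each list has genes on both sides of 0.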

How the data were processed

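Total RNA of 6 tumors was poly(A)-selected and sequenced from both ends. The authors deposited TPM with 2 decimals for 54167 genes, 1 column per tumor without pooling, and the sample descriptions identified the columns. The submitters' processing notes name HISAT2, StringTie and mm9, without versions or roles. The annotation and filters are not given in the sources used here. TPM keep no counts, so no count test was run and no counting error could be given. Since TPM have a fixed sum, a gene's value also depends on the rest of its tumor's RNA.

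From the deposited TPM, log2(TPM + 1) of 15117 genes entered a linear model with genotype in limma 3.58.1 (R 4.3.3), with trended empirical Bayes and Benjamini-Hochberg adjustment. The procedure was tested on simulated data with planted changes larger than those estimated for any of the 10 genes. Its power at their sizes was not tested. Where a symbol had several rows, the row with the highest mean was used. Exon overlaps came from GENCODE M21, which lists 52093 (96.2%) of the deposited gene IDs. The 10 genes and all gene lists were chosen with earlier results of these data known, so no p-value over a list is given. Named genes are the 10, *Trp53*, the 4 pathway genes with the smallest unadjusted p-values and the 3 profiles nearest to that of *Phgdh*. It was taken for having the largest SD of log2(TPM + 1) among the 10. *Ngp*, *Krt20*, *Lgals4*, *Aldh1l1*, *Mat1a*, *Gldc*, *Atf4*, *Tyms* and the genes with overlapping exons were named after their values had been seen. The same holds for *Mthfd2l*, *Ahcyl1*, *Ahcyl2*, *Amd1*, *Mthfsd*, *Slc7a11*, *S100a8*, *S100a9* and *Csf3r*. Alternatives were quantile normalization, median-of-ratios rescaling, epithelial centring (on the mean of 12 markers), a pseudocount of 0.1, no filter or a minimum mean of 5 TPM, array quality weights, a replicate block, no trend, an adjusted p-value under 0.1, and each tumor left out in turn.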

Additional observations from a re-analysis of the deposited data

How the results depend on the processing

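None of the 10 enzyme genes passed a limma adjusted p-value under 0.05 in any of the alternatives run, and the smallest was 0.130, for *Shmt1* with array quality weights. Those weights were 7.29 for Trp53fl/fl replicate 1 and 0.444 to 1.043 for the other tumors. All calls in that setting, of the 10 and of all genes, thus rest mostly on 1 tumor for the Trp53fl/fl group. In 6 of 146 fits of a gene under an alternative the unadjusted limma p-value was under 0.05, for *Shmt1* and, without Trp53fl/fl replicate 3, for *Phgdh*. Over all genes, the number under it ran from 1107 of 14891 without Trp53fl/fl replicate 1 to 4213 of 15117 with array quality weights. These fits reuse the same 6 tumors and are not independent. The sign of the log2 fold change stayed positive in every alternative for *Phgdh*, *Psph*, *Shmt1* and *Aldh1l2*, though epithelial centring lowered *Psph* to 0.039 and *Aldh1l2* to 0.088. Epithelial centring turned that of *Psat1* to -0.17, *Shmt2* to -0.056, *Mthfd1l* to -0.13 and *Mat2a* to -0.12, each nearer to 0 than the median of all genes in that setting (-0.24). Median-of-ratios rescaling turned *Mthfd1* to 0.013 and *Mthfd2* to 0.027, quantile normalization *Mthfd2* to 0.044, and array quality weights *Mthfd1l* to -0.043. With a tumor left out, the value ran from -0.12 to 0.14 for *Psat1*, -0.12 to 0.31 for *Shmt2*, -0.21 to 0.042 for *Mthfd1*, -0.19 to 0.077 for *Mthfd2*, -0.10 to 0.15 for *Mthfd1l*, -0.011 to 0.15 for *Mat2a*, 0.13 to 0.59 for *Phgdh*, 0.062 to 0.33 for *Psph* and, in 3 fits, 0.12 to 0.51 for *Aldh1l2*, and the median of those tested from -0.011 to 0.17. *Aldh1l2* was below the filter at a mean of 5 TPM and without Trp53fl/fl replicate 3, VP replicate 1 or VP replicate 2.

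Over all genes, the 25 calls (48.0% higher in VP tumors) became 7 without a filter, 41 with epithelial centring (34.1% higher), 10 with the replicate block (70.0% higher), 44 at an adjusted p-value under 0.1, 323 with array quality weights, and 3 to 23 with a tumor left out, 3 without Trp53fl/fl replicate 1. With median-of-ratios rescaling 60.0% of 20 were higher. The cause was not tested. Tumors with the same number share only that number. Across genes, their deviations from the genotype mean correlated at -0.052 to 0.019, and for 0 of 3 numbers was the match the closest. With 3 tumors a genotype and no read depth, smaller differences than the intervals given could not be resolved.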
